A study of Mus musculus with 12 samples.

Results

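Eif4g2, which the study calls Nat1, and 9 relatives from the cap-binding machinery of translation initiation were followed through mouse embryonic stem cells with and without Nat1. The 10 genes are Eif4g2, Eif4g1, Eif4g3, Eif4e, Eif4e2, Eif4e3, Eif4a1, Eif4a2, Eif4ebp1 and Eif4ebp2. They were taken by name, and every array probe whose RefSeq transcript belonged to one of them was kept, which gave 15 of 55681 probes. Eif4e, Eif4a2 and Eif4g3 had 2 probes each, Eif4e2 had 3, and the other 6 genes had 1 probe each. Total RNA was hybridised to 12 single-colour arrays of the Agilent platform, 3 for each of 4 groups: wild type and Nat1-null in LIF, and the same genotypes in 2i+LIF. All groups were of an embryonic stem cell line grown on gelatin-coated plates. LIF is the cytokine that keeps mouse embryonic stem cells self-renewing in serum medium, and 2i is the usual name for a pair of inhibitors of the MEK and GSK3 kinases that holds them closer to the naive state. The labels used here do not state how the Nat1 allele was disrupted, how many clones were used, or whether the 3 replicates of a group were separate cultures. The p-values therefore measure only the spread between these samples, which may be technical.

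Most mRNAs are translated after their 5′ cap has been bound by eIF4E, which together with the scaffold eIF4G and the RNA helicase eIF4A makes up the complex eIF4F. The 4E-BPs, products of the Eif4ebp genes, compete with eIF4G for eIF4E until the kinase mTORC1 phosphorylates them. Eif4g2 encodes a scaffold related to the C-terminal part of eIF4G that lacks the eIF4E-binding region and supports initiation on a subset of mRNAs without eIF4E, and embryonic stem cells without it are known for their resistance to differentiation. The study's question was what loss of Nat1 does in the 2 media. For these genes the comparison asks whether the mRNAs of the eIF4F relatives differ when Eif4g2 is lost.

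A level below is the log2 of a probe's processed signal minus the 75th percentile of its array, so that a level of 0 is the brightness of the 75th percentile probe, and levels were compared between arrays and never between probes. A probe is called when the adjusted p of limma over all 33286 probes tested is below 0.05. Between 49.8% and 66.3% of probes were well above background on an array, and no spot was saturated. The lowest correlation between replicates was 0.987. Slide 1 held the wild-type LIF arrays, slide 2 those of wild type in 2i+LIF and slide 3 the 6 Nat1-null arrays. Slide and genotype thus cannot be told apart, nor can slide and medium in wild-type cells, and media were compared within a single slide for the null cells alone. On slide 3, replicate 3 in LIF and the 3 arrays in 2i+LIF lay in the second row, with 49.8% to 55.1% of probes above background against 60.7% and 63.4% on the other 2 arrays. The scaling also mattered. The 75th percentile was 9.25 to 9.44 (log2) on the wild-type 2i+LIF arrays and 9.53 to 9.95 on the others. Without scaling the median difference of all probes between 2i+LIF and LIF in wild-type cells moved from 0.07 to -0.50, and the calls from 11512 higher and 8747 lower to 3037 higher and 20019 lower. Between genotypes in 2i+LIF the median difference moved from -0.01 to 0.21, and the calls from 6589 higher and 7401 lower to 12723 higher and 4213 lower. Directions below, and the absence of a call, are relative to the scaled arrays.

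All 8 embryonic stem cell markers (Pou5f1, Sox2, Nanog, Zfp42, Sall4, Lin28a, Utf1 and Tdgf1) were well above background on all 12 arrays, and their summed linear level was highest in Nat1-null LIF, at 253 to 324 against 165 to 214 elsewhere. In LIF 7 of the 8 were called higher in null than in wild-type cells, but Lin28a was lower, by -1.675 (limma, adjusted p = 8.8e-07). The wild-type LIF arrays stood apart in markers of other cell types. The summed linear level of 8 fibroblast or feeder cell markers was 131 to 147 there, against 2.03 to 2.19 in wild-type 2i+LIF, 0.627 to 0.996 in Nat1-null LIF and 1.76 to 2.1 in Nat1-null 2i+LIF. For 6 trophoblast markers the ranges were 175 to 199, 22.6 to 24.8, 9.71 to 10.7 and 26.1 to 28 in the same order, and for 5 neural progenitor markers 16.8 to 18.6, 2.97 to 3.34, 3.14 to 3.35 and 1.56 to 1.87. Each of these markers was above background on at least 1 wild-type LIF array. In the other groups Postn was above background on no array, nor were Fabp7 and Olig2, nor Cdx2. The 5 primitive endoderm markers summed to 0.859 to 1.22, 1.3 to 1.51, 2.22 to 4.31 and 1.56 to 2.19, highest in Nat1-null LIF. These markers were split, however. In LIF Gata4 and Gata6 were higher in null cells, by 1.47 and 2.77, and Sox17 and Foxa2 lower, by -1.85 and -2.09. Pdgfra was not called, and only 2 of the 5 were above background on every Nat1-null LIF array. Between genotypes in LIF, 6 of 7 fibroblast markers tested, 4 of 4 trophoblast markers and 3 of 4 neural markers were lower in null cells. Pdgfrb was not called, and Sox1 was higher by 0.22 (limma, adjusted p = 0.0327). With 2i in wild-type cells 5 of 7, 3 of 4 and 4 of 4 of these markers were lower. Pdgfrb and Tfap2c were higher there, by 2.04 and 0.45 (adjusted p = 0.00011 and 0.00046), and Thy1 was not called. A linear sum gives most weight to the brightest markers. In bulk RNA, a different share of cells of a type and a different amount of RNA per cell cannot be told apart. Every comparison with wild-type LIF cells below sets these marker levels side by side as well, and their part in the results was not tested.

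Eif4g2 mRNA was lower in Nat1-null cells in both media. Its probe (A_51_P306066, RefSeq mRNA NM_013507) read 4.54, 4.49 and 4.44 in wild-type LIF cells and 4.23, 4.09 and 4.29 in wild-type 2i+LIF cells. In Nat1-null cells it read 1.32, 1.26 and 1.25 in LIF and 1.24, 1.28 and 1.42 in 2i+LIF. The wild-type and null ranges were far apart, and the ranges of the 2 null groups overlapped. The difference was -3.21 ± 0.07 (log2, SE, 3 arrays against 3) in LIF, or 9.28-fold, and -2.89 ± 0.07 in 2i+LIF, or 7.42-fold (limma, adjusted p = 9.7e-10 and 2.2e-08). On each of the 6 null arrays the spot was still well above background. Where the probe lies relative to the disrupted part of the gene is not given in the sources used here, so the low signal checks the labels without showing how much intact transcript was left. Of the 33286 probes, 1134 had a lower difference than Eif4g2 in LIF and 145 in 2i+LIF. Among the 24937 probes above background on all 12 arrays the numbers were 237 and 21. In wild-type cells Eif4g2 was itself lower in 2i+LIF than in LIF by a small amount, -0.29 ± 0.07 (adjusted p = 0.00509).

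**Figure D1:**
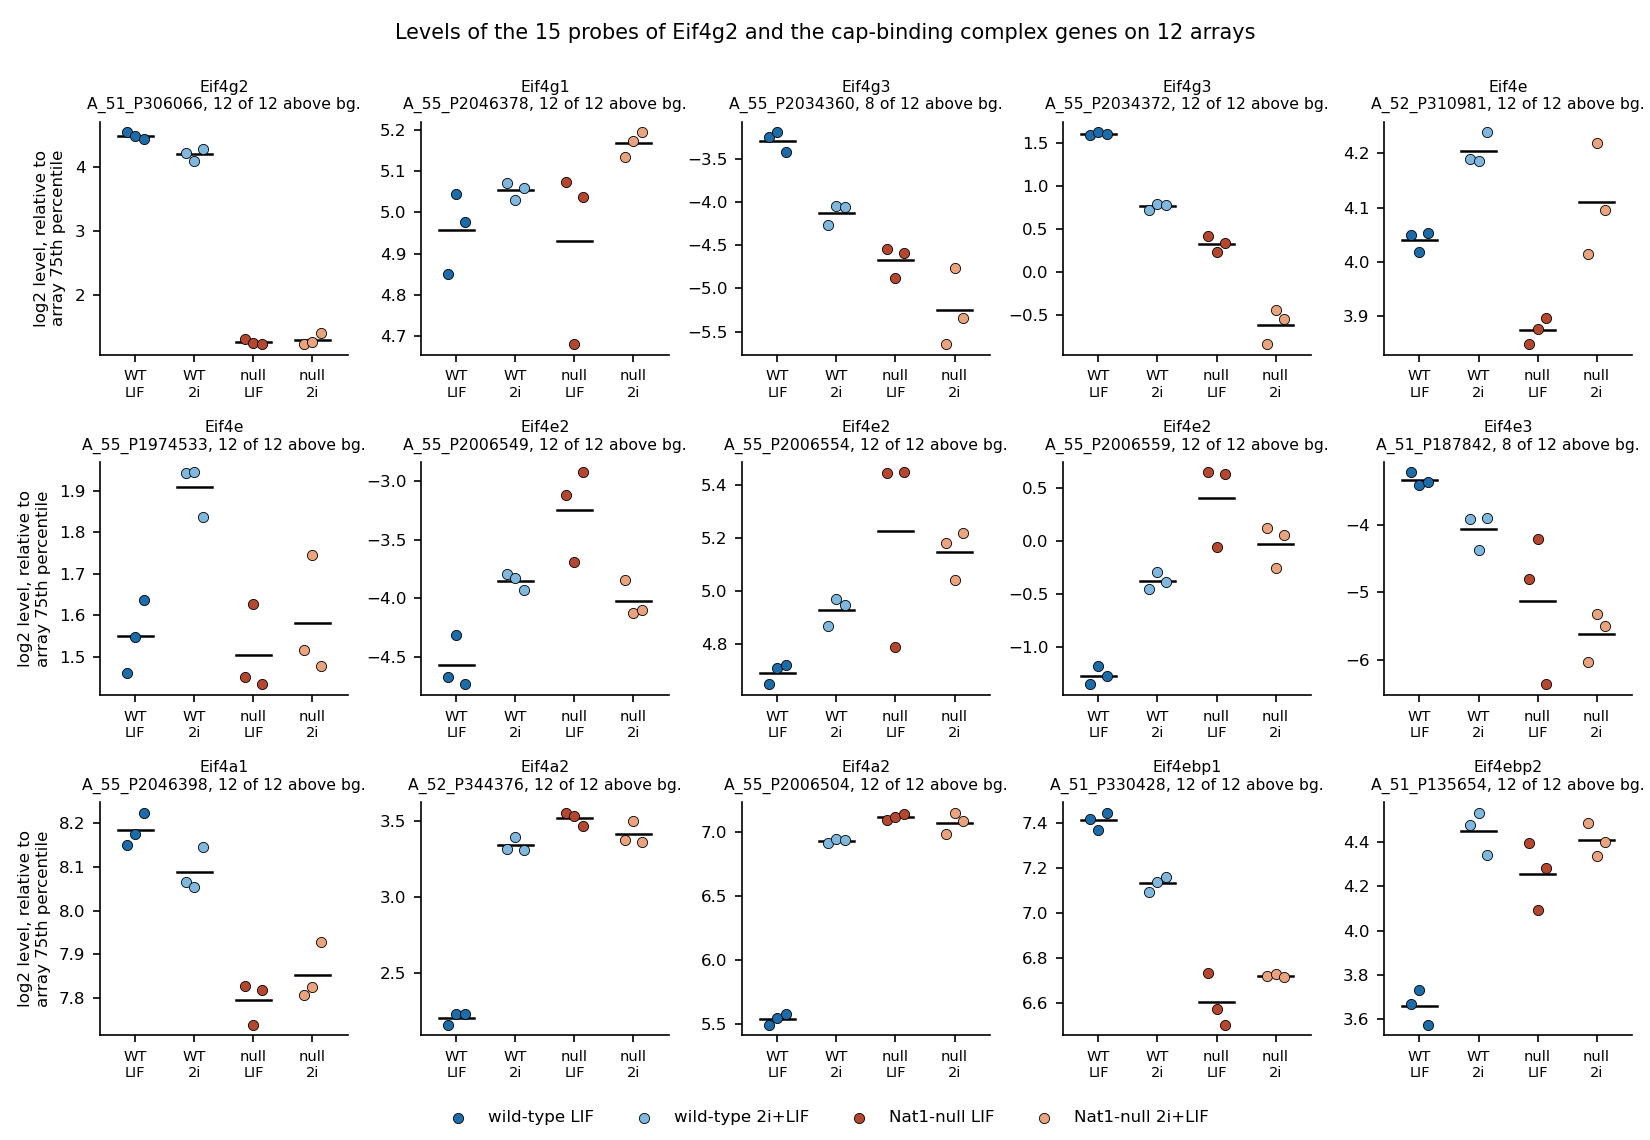
Log2 level (vertical axis, relative to the 75th percentile of the array) of each of the 15 probes on the 12 arrays; points are single arrays, black lines group means of 3, and each panel has its own axis and names its gene, its probe and the number of arrays on which it was above background (bg.). Eif4g2 separates wild type from null, Eif4a2 separates wild-type LIF from the other 3 groups, and the brighter Eif4g3 probe steps down from group to group. On the dim Eif4g3 probe the 2 null groups overlap.

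Of the related scaffolds, Eif4g3 was lower in null cells and Eif4g1 was not called in either medium. Eif4g1 encodes the main eIF4G scaffold. It read 4.85, 5.05 and 4.98 in wild-type LIF, 5.07, 5.03 and 5.06 in wild-type 2i+LIF, 5.08, 4.68 and 5.04 in null LIF, and 5.13, 5.17 and 5.19 in null 2i+LIF. The ranges overlapped between genotypes in LIF, where null replicate 2 was the lowest of all 12 arrays. In 2i+LIF the ranges did not overlap, and all null arrays lay above the wild-type arrays. The genotype difference was -0.03 in LIF (95% confidence interval -0.25 to 0.20, adjusted p = 0.83) and 0.11 in 2i+LIF (-0.11 to 0.34, adjusted p = 0.388). On the scaled arrays, an Eif4g1 change as large as that of Eif4g3 lies outside both intervals. The sign in LIF rested on null replicate 2, without which the difference was 0.10.

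Eif4g3 encodes a second full-length eIF4G. Its brighter probe (A_55_P2034372) read 1.58, 1.62 and 1.60 in wild-type LIF, 0.72, 0.79 and 0.77 in wild-type 2i+LIF, 0.42, 0.23 and 0.33 in null LIF, and -0.84, -0.44 and -0.55 in null 2i+LIF. No 2 groups overlapped, and the order from high to low was that just given. The genotype difference was -1.27 ± 0.09 in LIF (2.42-fold lower, adjusted p = 1.4e-06) and -1.37 ± 0.09 in 2i+LIF (2.58-fold lower, adjusted p = 4.7e-06). The second probe (A_55_P2034360) was close to background and went the same way, from -3.24, -3.19 and -3.42 in wild-type LIF to -4.54, -4.88 and -4.59 in null LIF. In null 2i+LIF it was well above background on no array. Its difference was -1.39 ± 0.20 in LIF (adjusted p = 0.00013), and in 2i+LIF it was at least 1.17-fold lower in null cells (adjusted p = 0.00126). These "at least" values set the brighter group against the dimmest signal counted as above background on the arrays of the other group. The adjusted p printed beside them, here and below, belongs to the limma fit of the measured levels and does not test the bound. With normexp background correction the 2 differences of this probe were -0.52 and -0.32, both still called. This correction adds an offset before the log2, which by itself narrows the differences of dim probes, here and below.

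Among the cap-binding proteins, Eif4e moved little, Eif4e2 was higher in null cells in LIF, and Eif4e3 was lower in null cells in both media. Eif4e encodes the cap-binding subunit of eIF4F. Its brighter probe (A_52_P310981) read 4.05, 4.02 and 4.05 in wild-type LIF and 3.85, 3.88 and 3.90 in null LIF, a difference of -0.17 ± 0.06 (adjusted p = 0.0292). The call was lost with no filter on dim probes (adjusted p = 0.0888) and without any of the 3 wild-type LIF arrays or null LIF replicate 1 (adjusted p = 0.0551 to 0.0789). In 2i+LIF the same probe read 4.19, 4.19 and 4.24 in wild type and 4.01, 4.22 and 4.10 in null cells, which overlapped (-0.10, adjusted p = 0.221). The other probe (A_55_P1974533) gave the opposite pair of calls. It differed by -0.05 in LIF (adjusted p = 0.671) and by -0.33 ± 0.09 in 2i+LIF (adjusted p = 0.0134), with 1.94, 1.95 and 1.84 in wild type and 1.52, 1.75 and 1.48 in null cells. The second of these was -0.11 without scaling (adjusted p = 0.471). Eif4e therefore has no call on which its probes agree for genotype in either medium, and the interval of the difference in LIF went no further than -0.30 for either probe.

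Eif4e2 encodes 4EHP, which binds the cap but not eIF4G and is known as a repressor of the mRNAs it holds. Its 3 probes were all higher in null cells in LIF. The brightest (A_55_P2006554) read 4.65, 4.71 and 4.72 in wild-type LIF and 5.44, 4.79 and 5.45 in null LIF. A second (A_55_P2006559) read -1.36, -1.18 and -1.28 against 0.64, -0.06 and 0.63. The third (A_55_P2006549) read -4.67, -4.31 and -4.73 against -3.12, -3.69 and -2.92. On every probe all null arrays lay above all wild-type arrays, and null replicate 2 lay well below the other 2 null arrays. The differences were 0.53 ± 0.15, 1.68 ± 0.18 and 1.33 ± 0.19 (adjusted p = 0.0111, 1.8e-05 and 0.00014). Without null LIF replicate 2 they were 0.75, 1.91 and 1.55, and the third was 0.76 with normexp. The size thus depended on the probe, and the call of the brightest was lost when only the arrays of the 2 groups were fitted (adjusted p = 0.0531). In 2i+LIF the same probes differed by 0.22, 0.35 and -0.18 on the scaled arrays, and none was called there (adjusted p = 0.28, 0.139 and 0.485). The brightest probe read 4.87, 4.97 and 4.95 in wild type and 5.18, 5.04 and 5.22 in null cells there, which did not overlap. With replicate 2 of the null cells left out in both media, the first of these probes and the second one were called in 2i+LIF, at 0.27 and 0.47 (adjusted p = 0.00269 and 0.00101).

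Eif4e3, an eIF4E relative that binds the cap in a different way, was close to background. It read -3.22, -3.41 and -3.37 in wild-type LIF and -3.92, -4.38 and -3.90 in wild-type 2i+LIF. In null cells it read -4.80, -4.20 and -6.36 in LIF, with 2 arrays above background, and -6.03, -5.33 and -5.51 in 2i+LIF, with none. All null arrays lay below the wild-type arrays of the same medium. The difference in LIF was -1.79 ± 0.45 (adjusted p = 0.00553). It was -0.54 with normexp background correction and -1.17 without null LIF replicate 3, both still called (adjusted p = 0.00045 and 0.00271). In 2i+LIF the gene was at least 1.22-fold lower in null cells (adjusted p = 0.0193). That call was lost with quantile normalization (adjusted p = 0.0535) and without replicate 1 or 3 of wild-type 2i+LIF or replicate 1 of null 2i+LIF (adjusted p = 0.0581 to 0.0663).

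The 2 helicase genes went in opposite directions in LIF. Eif4a1, the main eIF4A of growing cells, read 8.15, 8.18 and 8.22 in wild-type LIF and 7.83, 7.74 and 7.82 in null LIF. In 2i+LIF it read 8.07, 8.05 and 8.15 in wild type and 7.81, 7.83 and 7.93 in null cells. Null arrays lay below wild-type arrays in both media, by -0.39 ± 0.06 in LIF (adjusted p = 0.00016) and by -0.24 ± 0.06 in 2i+LIF (adjusted p = 0.00739). Without scaling between arrays the second difference was -0.01 (adjusted p = 0.879).

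Eif4a2, its close paralog, rose in null LIF cells on both of its probes. The brighter (A_55_P2006504) read 5.50, 5.55 and 5.58 in wild-type LIF, 6.91, 6.95 and 6.94 in wild-type 2i+LIF, 7.09, 7.12 and 7.14 in null LIF and 6.98, 7.15 and 7.08 in null 2i+LIF. The dimmer (A_52_P344376) read 2.17, 2.23 and 2.24, then 3.32, 3.40 and 3.31, then 3.55, 3.53 and 3.47, and then 3.38, 3.50 and 3.36 in the same groups. The 3 wild-type LIF arrays were by far the lowest on both probes, and the other 9 arrays lay within a narrow band. In LIF null cells were higher by 1.58 ± 0.06, or 2.98-fold, and by 1.31 ± 0.06, or 2.47-fold (adjusted p = 1.1e-08 and 4.2e-08). In 2i+LIF the differences were 0.14 and 0.07 and were not called (adjusted p = 0.0659 and 0.363), with 95% intervals that ended at 0.27 and 0.20. Without scaling they were 0.36 and 0.29, and both were then called (adjusted p = 0.00505 and 0.0129).

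The inhibitors of eIF4E also went opposite ways in LIF. Eif4ebp1, which encodes the best studied 4E-BP, read 7.42, 7.37 and 7.45 in wild-type LIF, 7.09, 7.14 and 7.16 in wild-type 2i+LIF, 6.73, 6.57 and 6.50 in null LIF and 6.72, 6.73 and 6.71 in null 2i+LIF. Both wild-type groups lay above both null groups. Null cells were lower by -0.81 ± 0.06 in LIF, or 1.76-fold, and by -0.41 ± 0.06 in 2i+LIF, or 1.33-fold (adjusted p = 1.9e-06 and 0.00057). The second was -0.19 without scaling (adjusted p = 0.0316).

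Eif4ebp2, the 4E-BP paralog, read 3.67, 3.73 and 3.57 in wild-type LIF, 4.48, 4.54 and 4.34 in wild-type 2i+LIF, 4.40, 4.09 and 4.28 in null LIF and 4.49, 4.34 and 4.40 in null 2i+LIF. As with Eif4a2, wild-type LIF was the low group, and wild-type 2i+LIF overlapped with null 2i+LIF. Null cells were higher by 0.60 ± 0.09 in LIF (1.52-fold, adjusted p = 0.00019) and differed by -0.04 in 2i+LIF (95% interval -0.24 to 0.16, adjusted p = 0.73). The differences of Eif4a1 and Eif4a2, and of Eif4ebp1 and Eif4ebp2, in LIF kept their opposite signs with no scaling and with quantile normalization.

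Eif4a2, Eif4ebp2 and Eif4e2 were low in wild-type LIF cells relative to the other 3 groups, whereas Eif4g3 fell from group to group on its brighter probe. The promoters of these genes are shown to set them side by side. RefSeq promoter sequences (assembly GRCm38.p6) were found for 7 of the 10 genes. The 250 bases before the start are printed from 5′ to 3′ along the gene, and capitals mark the motif matches described after them.
Eif4a2, chr16:23107218-23107467, plus strand: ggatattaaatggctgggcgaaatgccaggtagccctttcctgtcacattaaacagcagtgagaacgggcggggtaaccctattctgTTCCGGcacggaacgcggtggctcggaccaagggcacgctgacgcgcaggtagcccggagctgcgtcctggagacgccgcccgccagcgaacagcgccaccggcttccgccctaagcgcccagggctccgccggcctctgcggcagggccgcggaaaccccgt
Eif4ebp2, chr10:61452670-61452919, minus strand: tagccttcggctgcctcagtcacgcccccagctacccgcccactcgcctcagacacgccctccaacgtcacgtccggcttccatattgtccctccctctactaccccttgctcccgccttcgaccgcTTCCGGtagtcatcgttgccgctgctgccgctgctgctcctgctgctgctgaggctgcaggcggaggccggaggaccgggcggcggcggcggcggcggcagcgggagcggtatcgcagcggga
Eif4e2, chr1:87213689-87213938, plus strand: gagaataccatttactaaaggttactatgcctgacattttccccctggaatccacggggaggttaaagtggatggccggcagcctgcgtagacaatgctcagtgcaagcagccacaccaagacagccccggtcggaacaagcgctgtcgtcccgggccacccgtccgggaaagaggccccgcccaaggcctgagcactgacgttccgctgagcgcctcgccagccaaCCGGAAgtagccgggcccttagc
Eif4g3, chr4:137993205-137993454, plus strand: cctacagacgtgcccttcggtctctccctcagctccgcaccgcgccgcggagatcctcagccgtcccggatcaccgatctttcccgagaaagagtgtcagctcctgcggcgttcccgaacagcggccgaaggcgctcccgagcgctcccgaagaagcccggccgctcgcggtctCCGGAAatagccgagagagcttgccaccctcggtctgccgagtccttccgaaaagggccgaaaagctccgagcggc

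Each of the 7 genes' windows was searched on both strands for 5 motifs. All 4 windows printed hold CCGGAA, the core of many ETS factor sites, on one strand or the other. That motif is in 12% of the 32851 promoter windows of this length, and Eif4g3, with another pattern of levels, has it as well as the other genes. For Eif4e2 it lies only in the window of the third listed start, and the windows of the first start and the second one hold none of the 5 motifs. The third window is the one printed, so the match in all 4 printed windows depends on that choice. No window of Eif4g1, Eif4e or Eif4a1 holds CCGGAA. The STAT motif TTCNNNGAA (7.02% of windows) was found before the second start of Eif4e, together with 2 copies of the E-box CACGTG (6.02%). The E-box was also found in the windows of Eif4g1 and Eif4a1. The TCF and LEF motif ATCAAAG (3.21%) and the ATF4 and C/EBP element TGATGNAAT (0.816%) were found in none. These are matches of letters and were not tested as binding sites.

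In LIF, 13 of the 15 probes were called between genotypes, 6 higher and 7 lower in null cells. Of all probes tested 65.5% were called, 33.9% higher and 31.6% lower, so a call in this comparison is what most probes show. Counting a gene by any called probe, Eif4a2, Eif4e2 and Eif4ebp2 were higher, and Eif4g2, Eif4g3, Eif4e, Eif4e3, Eif4a1 and Eif4ebp1 were lower. Of these, Eif4e was called on its brighter probe alone, and Eif4g1 was not called. The median absolute difference over the 15 probes was 1.27, against 0.51 over all probes. That value includes Eif4g2 itself and gives more weight to genes with several probes. On their only or brightest probe the relatives differed by -0.03 (Eif4g1), -0.17 (Eif4e), -0.39 (Eif4a1), 0.53 (Eif4e2) and 0.60 (Eif4ebp2). The others differed by -0.81 (Eif4ebp1), -1.27 (Eif4g3), 1.58 (Eif4a2) and -1.79 (Eif4e3). In 2i+LIF, 7 probes were called, 0 higher and 7 lower, where 42% of all probes were called, 19.8% higher and 22.2% lower. The 8 probes not called included all 6 that were higher in LIF. Here the median absolute difference was 0.24 against 0.30 over all probes. Without scaling, 5 were called higher and 5 lower in 2i+LIF, while the counts in LIF were again 6 and 7. Eif4g2, Eif4g3, Eif4e3, Eif4a1 and Eif4ebp1 were called lower in both media, and Eif4e on a different probe in each.

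**Figure D2:**
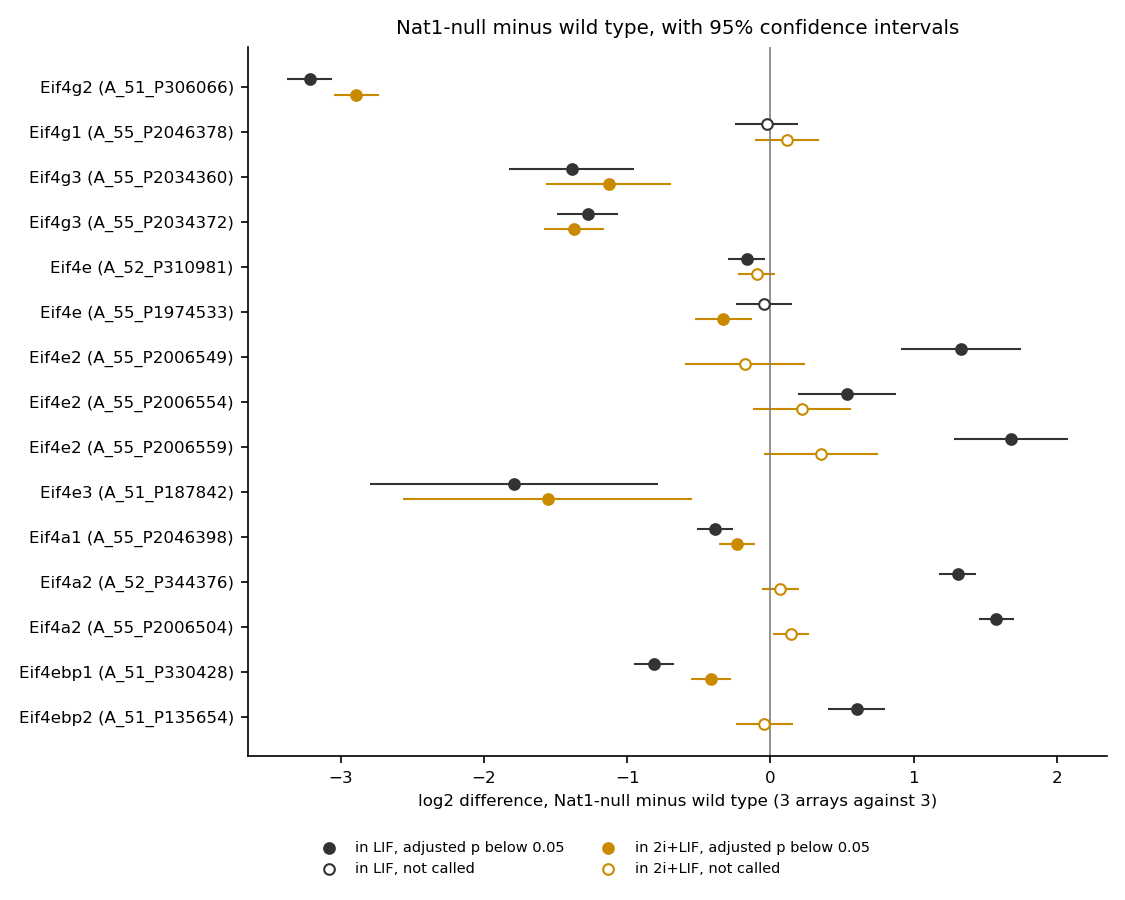
Log2 difference between Nat1-null and wild-type cells (horizontal axis) for the 15 probes in LIF (dark) and in 2i+LIF (ochre); bars are 95% confidence intervals of the limma fit with 3 arrays a group, filled points were called at adjusted p below 0.05. In LIF 6 probes lie to the right of 0 and are filled, and in 2i+LIF all 7 filled points lie to the left.

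The medium was compared within each genotype next. In wild-type cells 11 of the 15 probes were called between 2i+LIF and LIF, 7 higher and 4 lower in 2i+LIF, where 60.9% of all probes were called, 34.6% higher and 26.3% lower. This comparison and the genotype comparison in LIF share the 3 wild-type LIF arrays, so values that are alike in both are not independent of each other. Eif4a2 was higher in 2i+LIF by 1.39 ± 0.06 (2.62-fold) and 1.13 ± 0.06 (2.19-fold) on its 2 probes (adjusted p = 5.7e-08 and 2.3e-07), beside 1.58 and 1.31 for loss of Nat1 in LIF. Without scaling these were 0.82 and 0.56, still called. Eif4ebp2 was higher by 0.80 ± 0.09 (adjusted p = 3.6e-05), beside 0.60, but by 0.23 without scaling (adjusted p = 0.0624). Eif4e2 was higher by 0.89 ± 0.18 and 0.72 ± 0.19 on its dimmer probes (adjusted p = 0.00163 and 0.00731), beside 1.68 and 1.33, and these calls too were lost without scaling (0.32 and 0.16, adjusted p = 0.106 and 0.477). Its brightest probe differed by 0.24 and was not called (adjusted p = 0.209).

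Among the genes lower in wild-type 2i+LIF cells, Eif4g3 differed by -0.84 ± 0.09 on its brighter probe (1.79-fold, adjusted p = 3.8e-05) and Eif4ebp1 by -0.28 ± 0.06 (adjusted p = 0.00327). Without scaling Eif4g2, Eif4g3 and Eif4ebp1 stood at -0.86, -1.41 and -0.85. The dim Eif4g3 probe also differed by -0.84 (adjusted p = 0.00412), and by -0.16 with normexp background correction (adjusted p = 0.084). Eif4e was called higher on both probes, by 0.16 and 0.36 (adjusted p = 0.033 and 0.00535), but its sign depended on the scaling: without it the differences were -0.40 and -0.21. The call of the first of these was also lost with quantile normalization, with normexp, with no filter on dim probes and without any one of the 6 arrays (adjusted p = 0.353, 0.34, 0.101 and 0.0599 to 0.0971). Eif4g1 was not called, and its sign changed in the same way, from 0.10 to -0.47. Eif4a1 differed by -0.10 (adjusted p = 0.168), and by -0.66 without scaling and -0.36 with quantile normalization, where it was called. Eif4e3 differed by -0.73 (adjusted p = 0.187), and was called when only the wild-type arrays were fitted (adjusted p = 0.0047). Without scaling 2 of the 15 probes were called higher and 8 lower.

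In Nat1-null cells, the comparison made within 1 slide, 4 of the 15 probes were called, 1 higher and 3 lower in 2i+LIF, where 35.2% of all probes were called, 19.3% higher and 15.9% lower. Eif4g3 was lower by -0.94 ± 0.09 on its brighter probe (1.91-fold, adjusted p = 6.4e-05), beside -0.84 in wild-type cells. On its dim probe the difference was -0.58 (adjusted p = 0.0437), with 2 arrays above background in LIF and none in 2i+LIF, and 0.033 with normexp (adjusted p = 0.76), and the call was also lost without any one of 10 of the 12 arrays (adjusted p = 0.0547 to 0.132). The dimmest Eif4e2 probe was lower by -0.78 ± 0.19 (adjusted p = 0.01), and by -0.25 with normexp (adjusted p = 0.186). Its call was lost when only the null arrays were fitted (adjusted p = 0.0635). The brighter Eif4e probe was higher by 0.24 ± 0.06 (adjusted p = 0.0117), and by 0.04 without scaling (adjusted p = 0.736). Eif4a2 and Eif4ebp2, which rose with 2i in wild-type cells, differed here by -0.05, -0.11 and 0.15 and were not called (adjusted p = 0.553, 0.178 and 0.216). Eif4e3 was above background on no array in 2i+LIF, and its level in LIF lay below the dimmest signal counted there, so neither a fold nor a direction is given for it, nor is a fold for the dim Eif4g3 probe. The remaining genes, Eif4g2, Eif4g1, Eif4a1 and Eif4ebp1, differed by 0.03, 0.24, 0.06 and 0.12 and none was called. All 3 arrays in 2i+LIF, but only 1 of the 3 in LIF, lay in the second row of the slide, and the part of that row in the values of dim probes was not tested.

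The difference between the genotypes in their response to 2i was tested as an interaction, and 7 of the 15 probes were called, 2 higher and 5 lower, where 48.2% of all probes were called, 21.9% higher and 26.2% lower. For Eif4a2 the 2i difference in null cells minus that in wild-type cells was -1.44 ± 0.08 and -1.24 ± 0.08 on its 2 probes (adjusted p = 7e-07 and 2.2e-06). For Eif4e2 it was -1.33 ± 0.25 and -1.50 ± 0.27 on the 2 dimmer probes (adjusted p = 0.00175 and 0.00114) and -0.31 on the brightest (adjusted p = 0.26). Without null LIF replicate 2 the last value was -0.53 and was called (adjusted p = 0.00097). For Eif4ebp2 it was -0.64 ± 0.13 (adjusted p = 0.00207), and -0.27 without scaling (adjusted p = 0.134). Positive values were found for Eif4ebp1, 0.40 ± 0.09 (adjusted p = 0.00445), and for Eif4g2 itself, 0.32 ± 0.10 (adjusted p = 0.022), which were 0.77 and 0.70 without scaling. The dimmest Eif4e2 probe gave -0.81 with normexp, still called. The Eif4g2 call was lost with no filter on dim probes (adjusted p = 0.0644) and without wild-type LIF replicate 1 or wild-type 2i+LIF replicate 2 (adjusted p = 0.0537 and 0.051). For the brighter Eif4g3 probe the interaction was -0.10 with a 95% interval of -0.39 to 0.20 (adjusted p = 0.587). Without scaling 5 probes were called higher and 4 lower.

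**Figure D3:**
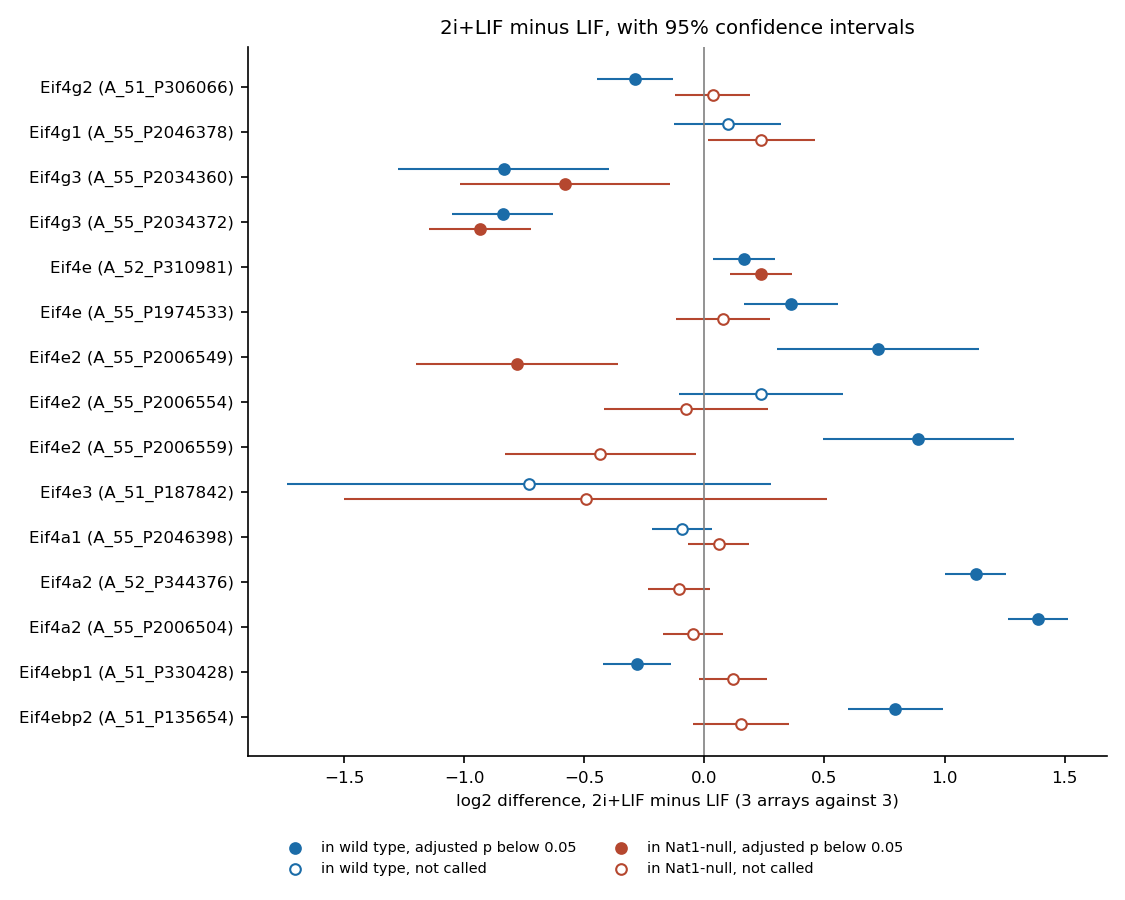
Log2 difference between 2i+LIF and LIF (horizontal axis) for the 15 probes in wild-type cells (blue) and in Nat1-null cells (red); bars are 95% confidence intervals with 3 arrays a group, filled points were called at adjusted p below 0.05. Both Eif4a2 probes lie beyond 1 in wild-type cells and near 0 in null cells, and the Eif4g3 points of the 2 genotypes lie close together.

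The wider machinery was read from 52 further genes in 3 lists, with 74 of their 77 probes tested. In LIF 53 of the 74 were called, 32 higher and 21 lower in null cells, which is 71.6% beside 65.5% of all probes. In 2i+LIF 35 were called, 28 higher and 7 lower, which is 47.3% beside 42%. The median difference of the 74 was 0.11 in each medium, beside 0.03 and -0.01 over all probes. With 2i in wild-type cells 51 were called, 33 higher and 18 lower, which is 68.9% beside 60.9% of all probes. With 2i in null cells 38 were called, 30 higher and 8 lower, which is 51.4% beside 35.2%. In the interaction 42 were called, 20 higher and 22 lower, which is 56.8% beside 48.2%.

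Among 25 partners and regulators of eIF4F (35 probes tested), 18 probes were higher and 9 lower in null cells in LIF, and 15 higher and 7 lower in 2i+LIF. The shares called were 77.1% and 62.9%, beside 65.5% and 42% of all probes. Ctif, a scaffold that works with the nuclear cap-binding complex, was higher by 2.86 ± 0.07 in LIF and by 0.66 in 2i+LIF (adjusted p = 1.9e-09 and 8.1e-05). Gigyf1 and Gigyf2, which encode partners of the Eif4e2 protein, were higher by 1.21 and 1.02 in LIF (adjusted p = 5.1e-08 and 1.3e-07) and by 0.33 and 0.31 in 2i+LIF (adjusted p = 0.001 and 0.00124). A second Gigyf1 probe gave 0.20 in LIF (adjusted p = 0.0223) and -0.03 in 2i+LIF (adjusted p = 0.777), and the mean of both Gigyf1 probes gave 0.71 and 0.15. Larp1, which binds the cap of mRNAs for ribosomal proteins, was higher in null cells in 2i+LIF by 0.81 and 0.77 on 2 probes (adjusted p = 2.5e-05 and 7.9e-06). In LIF the same Larp1 probes differed by -0.15 and -0.69 (adjusted p = 0.0924 and 3.3e-06). Cyfip2, whose paralog Cyfip1 is an eIF4E-binding protein, was lower by -0.76 in 2i+LIF and by -0.26 in LIF (adjusted p = 3.7e-05 and 0.0114).

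The closest family relatives outside the 10 genes were Eif4ebp3 and Eif4e1b. Eif4ebp3, the third 4E-BP, was higher in null cells by 0.35 in LIF (adjusted p = 0.00052) and by 0.17 in 2i+LIF (adjusted p = 0.0454). The first was 0.20 without scaling (adjusted p = 0.0502), and the second was lost under most alternatives, with an adjusted p of 0.32 after quantile normalization. Eif4e1b, an eIF4E form known from oocytes, was dim. It was lower by -2.10 in null LIF cells (adjusted p = 0.00067), where 1 of 3 arrays was above background, and 0.84 higher in 2i+LIF without a call (adjusted p = 0.0993). With normexp the first was -0.73, still called.

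Of 11 genes of the mTORC1 pathway, including S6 kinase genes (15 probes tested), 9 probes were higher and 2 lower in null cells in LIF, and 7 higher and 0 lower in 2i+LIF. The shares called, 73.3% and 46.7%, were near the 65.5% and 42% of all probes. Deptor, an inhibitory subunit of mTOR complexes, was higher by 1.72 ± 0.07 in LIF and by 0.32 in 2i+LIF (adjusted p = 2.5e-08 and 0.00449). Tsc2, whose product switches off the activator Rheb, was higher by 1.36 and 0.72 (adjusted p = 5.9e-05 and 0.00682). Rps6kb2, an S6 kinase gene, was higher on both probes in LIF, by 1.13 and 1.06, and by 0.40 and 0.44 in 2i+LIF, where the second was called (adjusted p = 0.0604 and 0.0215). That call was lost with replicate 2 of wild-type 2i+LIF (adjusted p = 0.0756) or replicate 3 of null 2i+LIF (adjusted p = 0.078) left out. Mtor and Rptor, the kinase and its defining partner, were higher by 0.40 and 0.37 in 2i+LIF (adjusted p = 0.00185 and 0.0102). Without scaling the values of Deptor, Mtor and Rptor in 2i+LIF were 0.54, 0.62 and 0.59, and with normexp those of Tsc2 were 0.84 and 0.25, all still called. The higher genes of this list thus included activators and inhibitors of the pathway.

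The 16 eIF3 and eIF2 genes (24 probes tested) encode the factors that carry the initiator tRNA and the small ribosomal subunit. In LIF 5 probes were higher and 10 lower in null cells, and in 2i+LIF 6 were higher and 0 lower. The shares called, 62.5% and 25%, were below the 65.5% and 42% of all probes. Their median difference was -0.12 in LIF and 0.10 in 2i+LIF. Eif2s2, the beta subunit of eIF2, was higher by 1.11 and 0.76 on one probe (adjusted p = 2.5e-06 and 0.00011), but its other probe differed by -0.22 and 0.25 and was not called (adjusted p = 0.0822 and 0.0715). Eif3k was higher on 3 probes in both media, by 0.93, 0.41 and 0.29 in LIF and by 0.30, 0.26 and 0.28 in 2i+LIF. Without scaling the third value in LIF was 0.14 (adjusted p = 0.0953). Eif3j1 and Eif3m were lower in LIF by -0.85 and -0.80, and by -0.20 and -0.13 in 2i+LIF without a call (adjusted p = 0.109 and 0.0868).

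**Figure D4:**
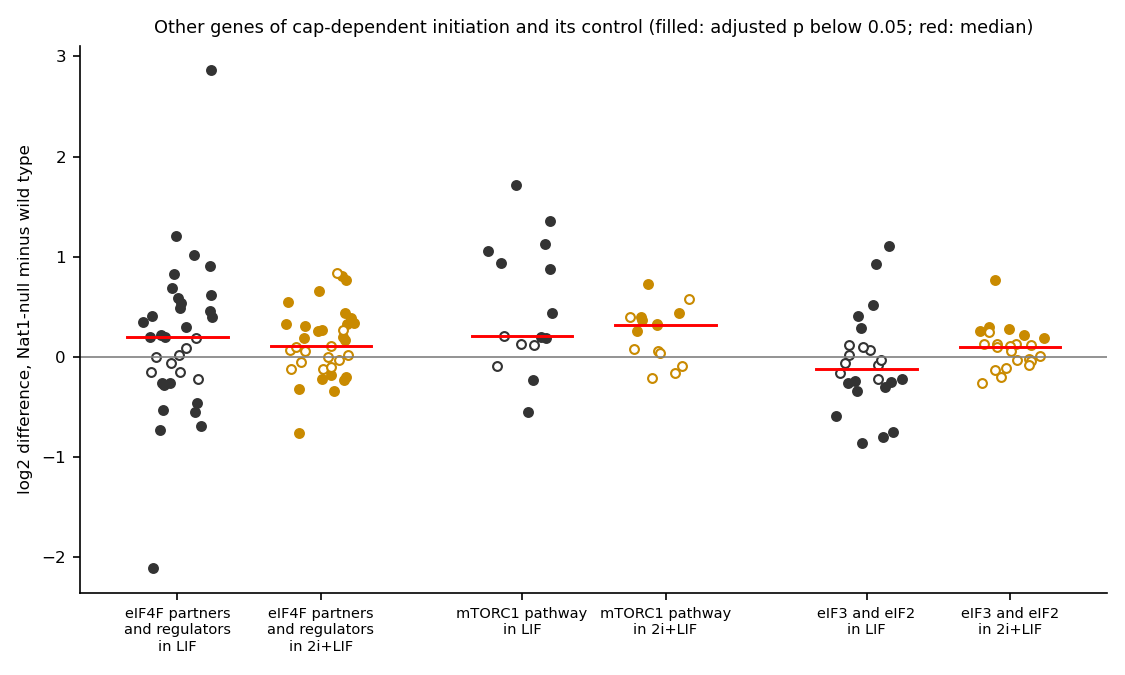
Log2 difference between Nat1-null and wild-type cells (vertical axis) for every tested probe of the 3 lists, in LIF (dark) and in 2i+LIF (ochre); filled points were called at adjusted p below 0.05 and red lines are medians. The mTORC1 points that are filled in 2i+LIF all lie above 0, and the eIF3 and eIF2 medians change side between the media.

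The genes next to Eif4g2 on chromosome 7 were read as well. Ctr9, the nearest on one side, encodes a subunit of the PAF1 complex of transcription. Its 2 probes were lower in null cells by -0.86 and -0.75 in LIF, and by -0.25 and -0.24 in 2i+LIF. Both calls in 2i+LIF were lost without scaling, where the differences were -0.03 and -0.02. With 2i in wild-type cells they were lower by -0.84 and -0.83 (adjusted p = 2.4e-05 and 4e-06). Beyond it, Mrvi1 was at least 3.99-fold lower in null cells in LIF (adjusted p = 6.9e-07), being above background on no null LIF array. On the other side 1700012D14Rik was higher by 0.93 in LIF (adjusted p = 0.0117) and lower by -1.13 in 2i+LIF (adjusted p = 0.00759), or 0.54 and -0.47 with normexp. The next gene, Galnt18, was at least 1.78-fold lower in null cells in LIF (adjusted p = 0.00214). With 2i in wild-type cells Mrvi1 was at least 4.06-fold lower and Galnt18 at least 1.81-fold (adjusted p = 1.9e-05 and 0.02). The Galnt18 call was lost with normexp (adjusted p = 0.317), with quantile normalization (0.0695), and when replicate 2 or 3 of wild-type LIF or replicate 1 or 2 of wild-type 2i+LIF was left out (0.0582 to 0.0737). In 2i+LIF neither was above background on any array of either genotype, so no difference is given for them there.

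Finally, probes were ranked by how closely their levels followed those of Eif4g2 over the 12 arrays, among 4234 probes of 3729 genes that were above background on all arrays and varied by an SD of at least 0.5. The highest Pearson correlations were those of Nek3 (0.996), Sri (0.996), Vegfd (0.993), Epb41l3 (0.992) and Xlr5b (0.992). The lowest were those of Dnajc12 (-0.995), Tcf19 (-0.994), Ushbp1 (-0.993), Ppt2 (-0.991) and Rbm47 (-0.990). The 12 arrays fall into 4 groups, and those of a group share a slide, so these values describe mainly steps between groups. Nek3 went from 3.23 and 3.14 in wild-type cells (LIF and 2i+LIF) to 1.90 and 2.02 in null cells, and Dnajc12 from 0.51 and 0.66 to 1.93 and 1.95. Epb41l3, which encodes a protein of the membrane skeleton, went from 2.47 and 2.03 to 0.02 and -0.25. Of the relatives of Eif4g2 only probes of Eif4g3, Eif4e2 and Eif4a2 met these limits. Eif4g1, Eif4e, Eif4e3, Eif4a1, Eif4ebp1 and Eif4ebp2 were not ranked, so their likeness to Eif4g2 is not given. Among the ranked relatives the brighter Eif4g3 probe came closest, with 0.844. Eif4e2 had -0.819 and -0.598 on 2 probes and Eif4a2 -0.705 and -0.699.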

How the data were processed

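Each of the 12 deposited files holds scanner intensity values, per the file headers a processed signal from Agilent Feature Extraction 10.7.3.1 with background and within-array trends removed and arrays left unscaled. The log2 values in the authors' deposited table correlate with the scaled values below at 1 on each array. Control spots and spots marked as outliers were removed, spots of a probe were averaged on the log2 scale, and each array's 75th percentile was subtracted. A probe was tested if it had a value on all 12 arrays and exceeded background on every array of some group (33286 of 55681). limma 3.58.1 (R 4.3.3) fitted the 4 group means and 5 two-sided contrasts, one row per probe and adjusted over all probes by Benjamini-Hochberg. Probes were named through RefSeq accessions (assembly GRCm38.p6; 27656 probes named). Array designs differ in build from that assembly, so promoter positions are those of the RefSeq table.

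All member probes were named, whatever their values. Also named were the 4 called probes with the largest difference per list and genotype contrast, Eif4ebp3, Eif4e1b, the 2 tested genes nearest to Eif4g2 on each side, and the 5 genes most and least correlated with it. Members and lists were chosen with earlier results of these data known. Alternatives were no scaling, quantile normalization, normexp (offset 50, on median spot signals because the files hold no mean spot signal), other filters on dim probes, outlier spots kept, 1 value per gene, the authors' table, only the compared groups, a replicate block, and each array left out. Intervals of 3 arrays against 3 are wide for dim probes, and the number of arrays limits the precision. Figures were drawn in Python (3.11.15) with matplotlib (3.10.9).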

Additional observations from a re-analysis of the deposited data

Results flagged for a closer look

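For 7 of the 15 probes the effect of 2i differed between the genotypes in the interaction test of limma. The 2i difference in Nat1-null cells minus that in wild-type cells was -1.44 and -1.24 for the 2 probes of the helicase gene Eif4a2, which rose with 2i in the 3 wild-type arrays and not in null cells. It was -1.33 and -1.50 for the 2 dimmer probes of Eif4e2, the gene of the repressive cap-binding protein, and -0.64 for Eif4ebp2. For Eif4ebp1 it was 0.40 and for Eif4g2 0.32, as both were lower with 2i in wild-type cells and differed little in null cells. The Eif4ebp2 call was lost without scaling, and the Eif4g2 call with no filter on dim probes and when either of 2 single arrays was left out. The share called, 46.7%, was near the 48.2% of all probes tested, so the count is not particular to these genes. Wild-type LIF and wild-type 2i+LIF cells lay on different slides, and the part of the slide was not tested.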

How the results depend on the processing

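The 15 probes were recomputed in 5 contrasts under each alternative that could give them a value (13 passed the strictest filter, 10 values stand for them with 1 value per gene, and the interaction needs all groups). Of the resulting values 1600 kept direction and side of the threshold, 50 lost the call, 40 gained one, 31 not called either way changed sign and 4 reversed. The 4 were, without scaling, Eif4e at -0.40 and -0.21 and Eif4g1 at -0.47 for 2i in wild-type cells, and, with normexp, the dim Eif4g3 probe at 0.033 (from -0.58) for 2i in null cells; the cause was not tested. Leaving out 1 array gave 12 to 13 called of 15 in LIF, 6 to 9 in 2i+LIF, 10 to 12 for 2i in wild type, 3 to 6 for 2i in null cells and 6 to 8 in the interaction. With null replicate 2 left out in both media, chosen after seeing the data, the counts were 13, 10, 12, 6 and 9. With 1 value per gene there are 10 values in place of 15: the mean of a gene's probes gave 8 in LIF, 7 for 2i in wild type and 1 for 2i in null cells, and the brightest probe 6 and 2 for 2i in the genotypes and 4 in the interaction. For 2i in null cells the count of 4 was 2 with normexp and 1 with only the null arrays, where fewer arrays estimate the spread. Of the 74 probes in the pathway lists 35 were called for genotype in 2i+LIF, against 54 without scaling and 23 with no filter on dim probes; without 1 array it was 23 to 44, lowest without wild-type 2i+LIF replicate 1 or null 2i+LIF replicate 3. For 2i in null cells 38 became 25 without scaling, 25 with no filter and 13 with only the null arrays, and 28 to 43 without 1 array. The other ranges without 1 array were 49 to 54 in LIF, 44 to 55 for 2i in wild type and 33 to 44 in the interaction. Replicate numbers showed little pairing of the samples: in 1 of 18 pairs of same-numbered arrays the deviations from the group means correlated above 0.1. That pair was Nat1-null replicate 2 in LIF and in 2i+LIF, at 0.273. With the replicate number as a block 13, 7, 11, 3 and 7 probes of the 15 were called, and 54, 30, 50, 38 and 41 of the lists. Slide as a block could not be run, because each wild-type group lies on a slide of its own. Probes near background (Eif4e3, 1 of Eif4g3, 1 of Eif4e2) have differences that shrink with normexp. Its offset of 50 is added before the log2 is taken, which by itself narrows the differences of dim probes. The smaller values therefore do not show that the measured differences were too large.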
